A study of Homo sapiens with 47 samples.

Results

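The 2 mature microRNAs (miRNAs) cut from the miR-22 hairpin, hsa-miR-22-3p and hsa-miR-22-5p, were followed through small RNA libraries of PC-3 and 22Rv1, 2 human lines grown from prostate cancers. They are 2 of the 1006 entries of the count table and were taken from it by name, in all 47 libraries. The pair was put forward with its values at 0% O2 in view, so everything measured at 0% O2 is given as a description with no test, and the tests use the other 5 O2 levels.

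PC-3 was derived from a bone metastasis and 22Rv1 from a subline of the CWR22R xenograft, per the labels. Cells in RPMI-1640 with fetal bovine serum were held for 24 h in a hypoxia chamber at 0% O2, at 0.2 or 0.5%, or at 1, 2 or 5%, and each level had its own normoxia controls in 95% air. Each of the 24 groups had 2 libraries, except the 22Rv1 control of the 0.2% level, which had 1. The spread of that control is taken to equal that of the other groups. The labels do not state that replicates were separate cultures, so the p-values measure the spread between these libraries, which may be technical. No genetic change was made, and each line stands for 1 tumour.

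A miRNA hairpin is cut by Drosha and Dicer into a short duplex, of which Argonaute keeps mainly 1 strand, the guide, while the other, the passenger, is mostly degraded. The guide pairs with messenger RNAs through its seed, bases 2 to 8. The miR-22 guide is the 3p arm. MYC, a transcription factor that drives growth, is known to repress the miR-22 locus.

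The sequences below are those of RefSeq on GRCh38.p14 and show which strand is which, with the seed in capitals.
hsa-miR-22-3p: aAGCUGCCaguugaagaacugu
hsa-miR-22-5p: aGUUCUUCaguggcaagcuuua
The 3p arm lies at chr17:1713914-1713935 and the 5p arm at chr17:1713952-1713973, both on the minus strand. None of the other names among 2370 RefSeq mature miRNAs had the 7 seed bases of either arm. The hairpin is shown next as annotated by GENCODE, to place both arms (capitals) in 1 molecule; it covers chr17:1713903-1713987 of GRCh38, minus strand.
MIR22 hairpin: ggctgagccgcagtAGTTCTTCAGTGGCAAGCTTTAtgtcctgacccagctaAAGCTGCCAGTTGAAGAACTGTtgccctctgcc
Counted from its 5′ end, the 5p arm takes bases 15 to 36 and the 3p arm bases 53 to 74 of 85. The hairpin lies wholly within an exon, not an intron, of the long noncoding RNA MIR22HG (ENSG00000186594.14, chr17:1711493-1717174, minus strand) in 19 of its 19 annotated transcripts. The deposited tables carry no coordinates, and the submitters' notes name another build, hg19.

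Libraries held 1742290 to 4327382 counts in PC-3 and 960421 to 3181344 in 22Rv1. These are bulk samples, so a change in the share of cells that hold a miRNA and one in its amount per cell cannot be told apart. Levels are CPM, counts brought to a common library total within each line with TMM factors (trimmed mean of M values), unless stated otherwise. The hypoxia-induced miR-210-3p, a direct target of the HIF transcription factors, rose by a log2 fold change of 0.71 in PC-3 and 0.99 in 22Rv1, averaged over the 5 levels (edgeR quasi-likelihood test, Benjamini-Hochberg adjusted p = 4.15e-07 and 2.59e-08). Of 4 epithelial markers, miR-200c-3p and miR-141-3p averaged 20.6 and 8.37 CPM in PC-3, against 25175 and 14221 CPM in 22Rv1. For miR-200b-3p and miR-205-5p the averages were 5437 and 1314 CPM in PC-3, against 64.1 and 10.5 CPM in 22Rv1. Each line was thus high in a different pair. In PC-3, 6 stromal markers summed to up to 1202 CPM in hypoxia and 1274 CPM in normoxia, mostly miR-143-3p, against medians of 34.5 and 24.2 CPM over the 5 levels. At 0% O2 their sum was 34.8 to 37.0 CPM in hypoxia and 22.7 to 25.9 CPM in normoxia in PC-3, and 163 to 215 against 140 to 182 CPM in 22Rv1; the epithelial sum there was 34104 to 42990 CPM in hypoxia and 28267 to 35636 CPM in normoxia in 22Rv1. The stromal sums count both miR-199a-3p and miR-199b-3p, which had the same average, 3.19 CPM in PC-3 and 22.3 CPM in 22Rv1. The part of the stromal and epithelial sums in the results was not tested. In 22Rv1, 3 libraries stood apart from the rest on the first principal component, which held 26.8% of the variance: the 5% O2 replicate 1 of hypoxia and of its control, and the 0.5% O2 replicate 1 of hypoxia. At its other end lay the 0.2% O2 hypoxia replicate 2, at -7.04, with a TMM factor of 1.268. On the first component of PC-3 (19.4%), the 5% O2 replicate 1 of hypoxia and of its control were at 7.13 and 7.04. The next highest PC-3 library was at 3.01.

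The arms were far apart in abundance in both lines. In PC-3, miR-22-3p averaged 38105 CPM, the fifth highest of all entries, and miR-22-5p averaged 28.2 CPM, rank 269. In 22Rv1 the 3p arm averaged 41219 CPM, rank 6, and the 5p arm 34.4 CPM, rank 270. The guide thus outnumbered its partner 1352-fold in PC-3 and 1198-fold in 22Rv1, against a median of 13.6-fold over 130 hairpins and 9.67-fold over 152 hairpins with both arms measured; only 3 hairpins in PC-3 and 7 in 22Rv1 were more one-sided. Single libraries held 64019 to 159130 reads of miR-22-3p in PC-3 and 26976 to 197704 in 22Rv1. For miR-22-5p there were 38 to 145 reads in PC-3 and 17 to 166 in 22Rv1, so counting error is a large part of the spread of the minor arm: its SD between replicates was 0.23 log2 units in PC-3 and 0.20 in 22Rv1, against 0.06 and 0.13 for miR-22-3p.

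**Figure D1:**
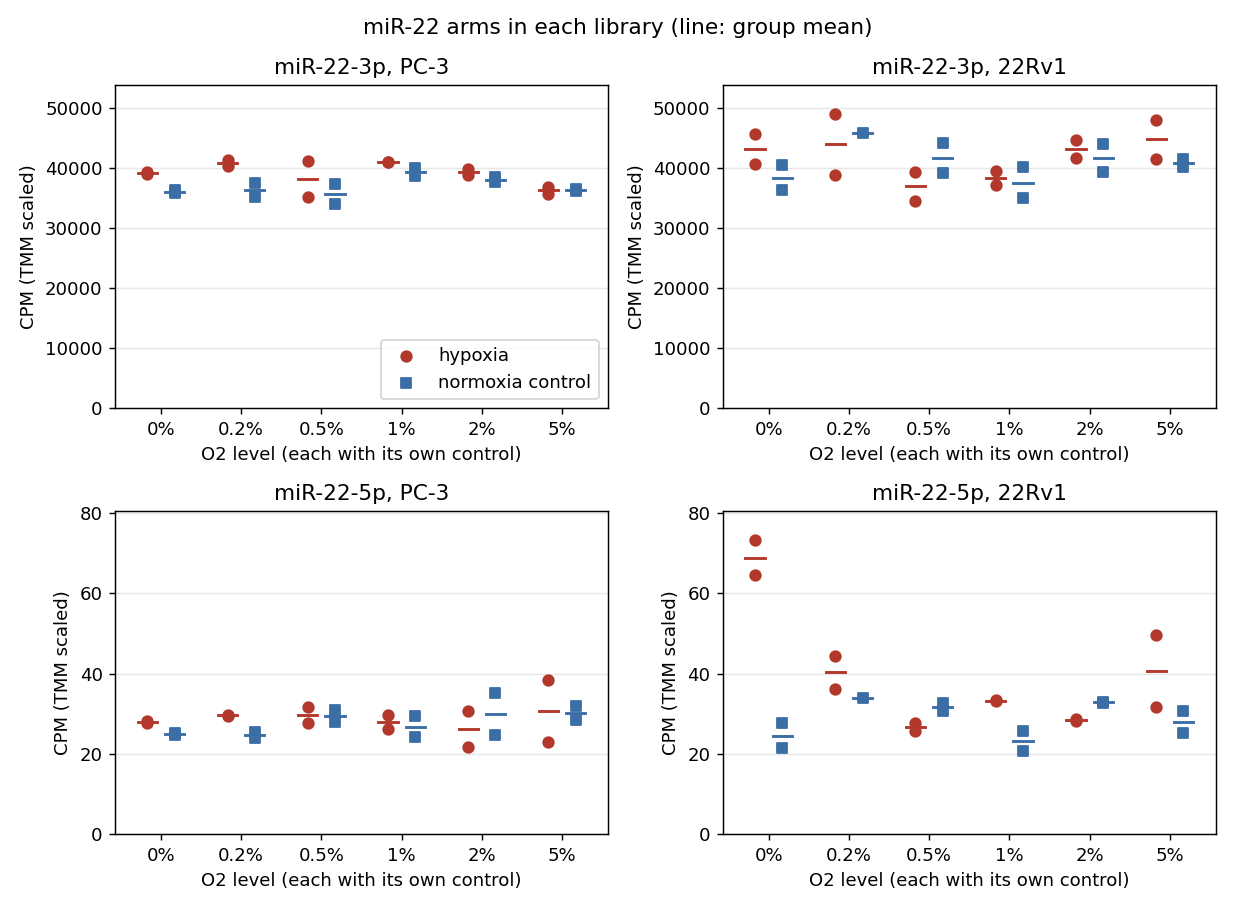
CPM of miR-22-3p (top) and miR-22-5p (bottom) in every library of PC-3 (left) and 22Rv1 (right), by O2 level, with hypoxia as circles, the normoxia control of that level as squares and group means as lines; values are scaled within each line. The 22Rv1 libraries at 0% O2 held 64.6 and 73.3 CPM of miR-22-5p, above every other library of either panel of that arm.

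At 0% O2 the passenger arm stood out in 22Rv1. There, miR-22-5p was read 135 and 166 times in hypoxia, against 71 and 59 times in normoxia. This came to 64.6 and 73.3 CPM in hypoxia, against 27.7 and 21.4 CPM in normoxia. The 95% Poisson intervals of 54.2 to 76.4 and 62.6 to 85.3 CPM in hypoxia stand beside 21.7 to 34.98 and 16.3 to 27.6 CPM in normoxia. Such intervals cover counting error only, and reads without molecular identifiers are not independent molecules. The log2 fold change was 1.49 ± 0.23 (SE), a 2.81-fold difference, the 13th highest of 552 miRNAs measured at that level. Those ranked above it include entries near the floor, such as miR-3620-5p, which averaged 2.41 CPM in 22Rv1.

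The guide arm of the same 22Rv1 cells differed little. Its level was 45796 and 40766 CPM in hypoxia at 0% O2, against 40533 and 36327 CPM in normoxia. Hypoxia was higher by 0.17 ± 0.18 (SE) on the log2 scale, given with no test.

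PC-3 gave no such difference at 0% O2. miR-22-5p was at 27.8 and 28.2 CPM in hypoxia, against 25.2 and 24.8 CPM in normoxia (log2 fold change 0.16 ± 0.22, SE). miR-22-3p was at 39361 and 39097 CPM in hypoxia, against 35942 and 36318 CPM in normoxia (0.12 ± 0.09, SE). The standard errors at 0% O2 are a description and no test in either line, because that level chose the pair. The 0% effect exceeded the mean effect of the other 5 levels by 1.34 ± 0.25 (SE) for miR-22-5p in 22Rv1, and by 0.13 ± 0.24 in PC-3.

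**Figure D2:**
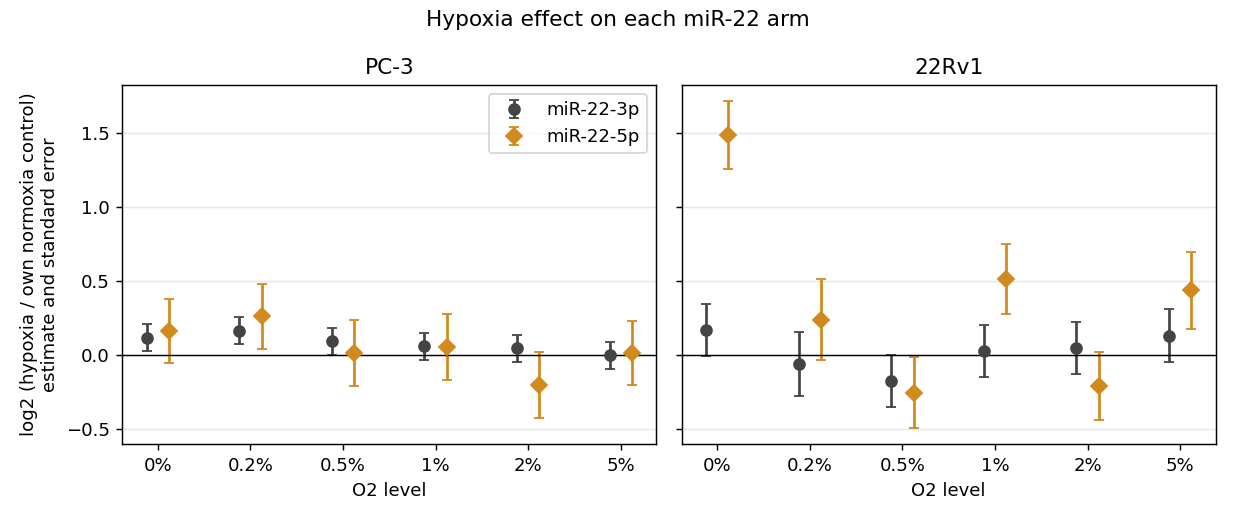
Log2 fold change of hypoxia over its own normoxia control for miR-22-3p (circles) and miR-22-5p (diamonds) at each O2 level in PC-3 (left) and 22Rv1 (right), from the edgeR fit, with standard errors as bars. The 5p estimate at 0% O2 in 22Rv1, 1.49, lies apart; the other 5p estimates run between -0.25 and 0.52.

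Averaged over the 5 levels from 0.2 to 5% O2, neither arm passed the test in either line. In PC-3, miR-22-3p averaged 39174 ± 2384 CPM in hypoxia and 37208 ± 1751 CPM in normoxia (SD, n = 10 each). Its log2 fold change was 0.07 ± 0.04 (SE, edgeR adjusted p = 0.306), with hypoxia higher in 9 of 10 replicate pairs. Over 9 alternative settings its adjusted p ran from 0.103 to 0.798. Pair counts, here and below, were not set against those of all miRNAs tested. miR-22-5p averaged 28.8 ± 4.69 CPM in hypoxia and 28.2 ± 3.72 CPM in normoxia, a log2 fold change of 0.03 ± 0.10 (adjusted p = 0.909), higher in 7 of 10 pairs. Of 463 miRNAs tested in PC-3, 7.99% were called, 20 higher and 17 lower, or 78 with replicate pairs as a block.

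In 22Rv1, miR-22-3p averaged 41491 ± 4612 CPM in hypoxia (SD, n = 10) and 41079 ± 3291 CPM in normoxia (n = 9). Its log2 fold change was -0.004 ± 0.08 (SE; edgeR adjusted p = 0.985), with hypoxia higher in 5 of 9 pairs. miR-22-5p averaged 33.9 ± 7.73 CPM in hypoxia and 29.5 ± 4.53 CPM in normoxia. That is a log2 fold change of 0.15 ± 0.11 (adjusted p = 0.506), again higher in 5 of 9 pairs, and 0.06 (adjusted p = 0.808) without the 3 libraries apart. Of 552 miRNAs, 9.42% were called, 27 higher and 25 lower, or 112 with the block. With the 0% level counted in, the mean effect on miR-22-5p was 0.37 ± 0.10, given with no test because that level chose the pair.

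Level by level, the 22Rv1 estimates for the passenger arm took both signs. At 0.2, 0.5 and 2% O2 they were near their standard errors (0.24 ± 0.27, -0.25 ± 0.24 and -0.21 ± 0.23, SE). Groups of 2 libraries, or 2 against 1, often lie apart with no effect. How many of all miRNAs had such groups was not counted. At 0.2% O2 miR-22-5p was at 44.5 and 36.2 CPM in hypoxia, against 33.9 CPM in the single normoxia library. At 0.5% it was at 27.6 and 25.7 CPM in hypoxia, against 30.8 and 32.6 CPM in normoxia, and at 1% at 33.4 and 33.2 CPM in hypoxia, against 25.6 and 20.8 CPM in normoxia. Hypoxia was thus the higher group at 0.2 and 1% and the lower at 0.5%. At 2% it was at 28.1 and 28.8 CPM in hypoxia, against 32.7 and 33.0 CPM in normoxia, and at 5% at 49.6 and 31.6 CPM in hypoxia, against 25.3 and 30.8 CPM in normoxia. Of these, 2% had the lower hypoxia group, and at 5% nearly all of the difference lay in replicate 1, whose libraries are 2 of the 3 that stood apart; in replicate 2 the values were 31.6 against 30.8 CPM.

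None of these single levels passed the adjusted threshold. At 1% O2 the 22Rv1 log2 fold change of miR-22-5p was 0.52 ± 0.24 (SE; edgeR adjusted p = 0.447), and 0.38 to 0.68 without 1 library of that level. The shares of miRNAs called in 22Rv1 were 0.906% at 0.2% O2, 3.08% at 0.5%, 0.725% at 1%, 0.362% at 2% and 0% at 5%. The estimates for miR-22-5p at the other levels were 0.24 at 0.2%, -0.25 at 0.5%, -0.21 at 2% and 0.44 at 5%, and those for miR-22-3p ran from -0.17 at 0.5% to 0.13 at 5%. Leaving out 1 library at a time, the 5% estimate of miR-22-5p was 0.13 without hypoxia replicate 1 and 0.75 without hypoxia replicate 2, and the 0.2% estimate 0.092 without hypoxia replicate 1 and 0.40 without replicate 2, so these estimates have no firm order. Ranked by mean CPM of miR-22-5p, the hypoxia groups of 22Rv1 ran 0% (68.9), 5% (40.6), 0.2% (40.3), 1% (33.3), 2% (28.4) and 0.5% (26.7). The 5% group overlapped both the 0.2% and the 1% group, and the 2 and 0.5% groups differed by less than the SD between replicates. The 0% group lay clear of the next library, at 49.6 CPM.

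In PC-3 the estimates at single levels spanned less. Those for miR-22-3p ran from -0.001 at 5% to 0.17 at 0.2% O2, and for miR-22-5p from -0.20 at 2% to 0.26 at 0.2%. At 0.2% O2 miR-22-5p was at 29.8 and 29.5 CPM in hypoxia, against 24.0 and 25.4 CPM in normoxia, and miR-22-3p at 40412 and 41359 CPM, against 37629 and 35256 CPM. Neither arm passed there (edgeR adjusted p = 0.764 for 5p and 0.538 for 3p). The shares of miRNAs called in PC-3 were 1.51% at 0.2% O2, 0.864% at 0.5%, 0.648% at 1%, 0.648% at 2% and 0% at 5%. At 5% O2, where edgeR called 0 miRNAs in each line, 15 in PC-3 and 19 in 22Rv1 had an unadjusted p below 0.05, and DESeq2 called 0 and 1.

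No step-wise change toward lower O2 was found over the 5 levels. The slope per step was 0.04 ± 0.03 (SE) for miR-22-3p and 0.07 ± 0.07 for miR-22-5p in PC-3, and -0.06 ± 0.06 and -0.04 ± 0.08 in 22Rv1, on the log2 scale (edgeR adjusted p = 0.985, 0.999, 0.918 and 0.977). The share of all miRNAs called for a slope was 0% in both lines, where 29 in PC-3 and 25 in 22Rv1 had an unadjusted p below 0.05 and DESeq2 called 0 and 0. No difference between the normoxia control sets of the 5 levels was called for either arm (edgeR adjusted p = 0.994 for both in PC-3 and 0.989 for both in 22Rv1).

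No difference in response between the lines was called for either arm. PC-3 minus 22Rv1, the mean hypoxia effect over the 5 levels differed by 0.06 ± 0.10 (SE) for miR-22-3p and -0.13 ± 0.15 for miR-22-5p (edgeR adjusted p = 0.949 and 0.856). The 95% intervals of these log2 differences were -0.14 to 0.25 and -0.43 to 0.16. Of 613 miRNAs, 1.47% were called for that difference, 9 in number, or 51 with the block.

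The balance of the arms does not depend on scaling between libraries, since both are read in 1 library. At 0% O2 in 22Rv1 there were 1.41 and 1.80 reads of miR-22-5p per 1000 reads of miR-22-3p in hypoxia, against 0.684 and 0.589 in normoxia. The exact binomial 95% intervals were 1.18 to 1.67 and 1.53 to 2.09 in hypoxia, against 0.534 to 0.863 and 0.448 to 0.759 in normoxia, again for counting error only. In PC-3 the values were 0.706 and 0.721 in hypoxia, against 0.700 and 0.683 in normoxia. The log2 change of the ratio at 0% O2 was 1.32 ± 0.23 (SE) in 22Rv1, the fifth highest of 152 hairpins for 5p over 3p, and 0.05 ± 0.22 in PC-3.

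Over the other 5 levels the ratio averaged 0.818 ± 0.166 per 1000 in hypoxia (SD, n = 10) and 0.716 ± 0.0794 in normoxia (n = 9) in 22Rv1, and 0.740 ± 0.142 in hypoxia and 0.760 ± 0.104 in normoxia in PC-3 (n = 10 each). The log2 change was 0.17 ± 0.11 (SE) in 22Rv1, where limma across hairpins gave an adjusted p of 0.499 and called 2.63% of hairpins. In PC-3 it was -0.05 ± 0.10 (limma adjusted p = 0.902), with 10% of hairpins called. An exact two-sided permutation test within levels gave p = 0.206 and p = 0.655. The highest hypoxia ratio outside 0% O2 in 22Rv1 was 1.14, in replicate 1 at 0.2% O2, while replicate 2 of that group was at 0.738, next to its control at 0.741.

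**Figure D3:**
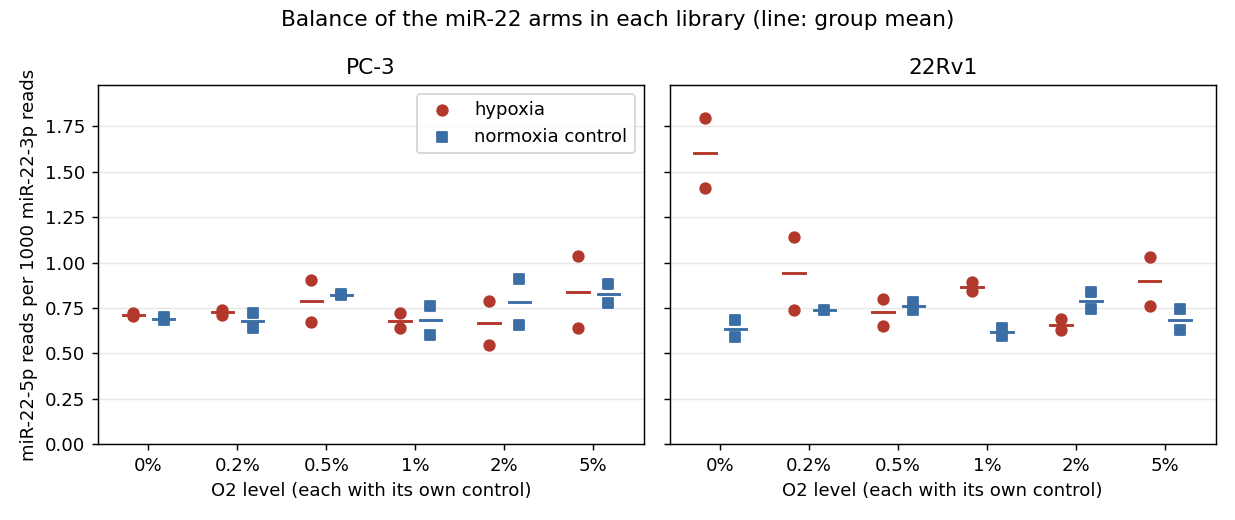
Reads of miR-22-5p per 1000 reads of miR-22-3p in each library of PC-3 (left) and 22Rv1 (right), by O2 level, with hypoxia as circles, normoxia controls as squares and group means as lines. The 22Rv1 hypoxia libraries at 0% O2, 1.41 and 1.80, lie above all 45 others, which reach 1.14.

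Set beside other hairpins, a higher level of the minor arm at 0% O2 was not general in 22Rv1. Over 152 hairpins the median log2 change at 0% O2 was -0.06 for the less abundant arm and 0.02 for the more abundant arm. The minor arm of miR-22, at 1.49, ranked 7 among them. The 6 above it, chosen by these values, were miR-3620-5p (2.24), miR-30b-3p (2.21), miR-338-5p (2.13), miR-210-5p, the partner of the hypoxia marker (1.97), miR-27a-5p (1.93) and miR-616-3p (1.67). Of these, miR-3620-5p and miR-616-3p averaged only 2.41 and 3.05 CPM in 22Rv1, against 34.4 CPM for miR-22-5p. Both lie below the 5 CPM that 2 libraries had to reach, so the rank counts entries near the floor. The more abundant arms of those 6 hairpins were 0.18 to 1.21 higher, and that of miR-22 was 0.17 higher. In PC-3 the miR-22 minor arm ranked 21 of 130, and the median minor arm was at -0.08.

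**Figure D4:**
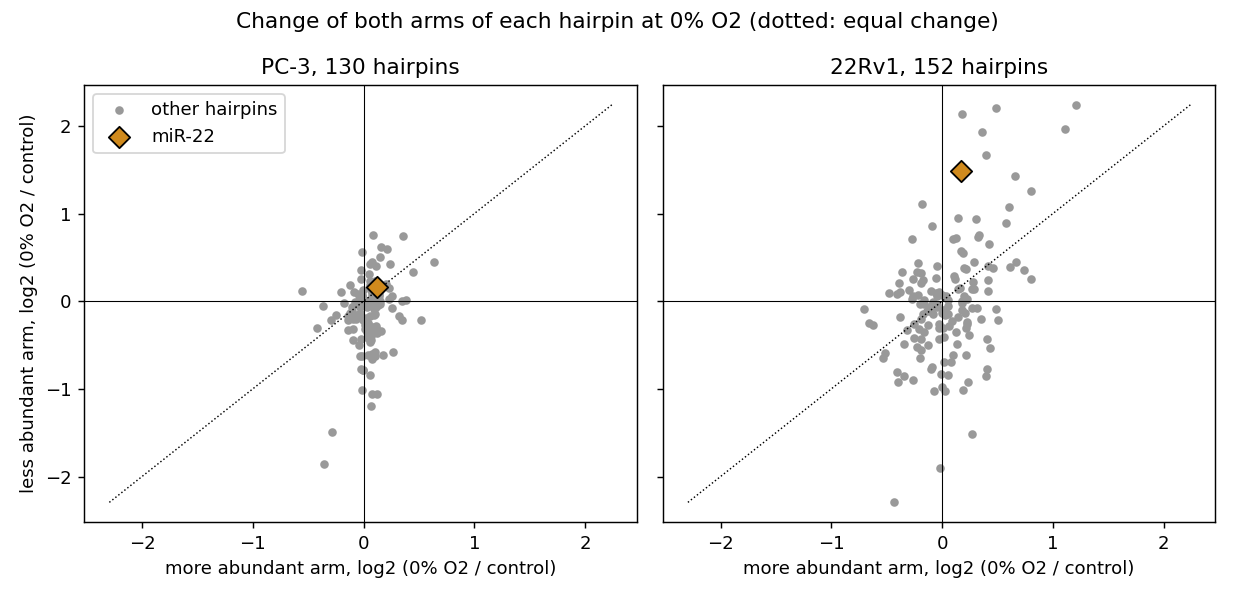
Log2 change at 0% O2 over normoxia of the more abundant arm (x axis) and the less abundant arm (y axis) of each hairpin, for 130 hairpins in PC-3 (left) and 152 in 22Rv1 (right); the diamond is miR-22 and the dotted line marks equal change. In 22Rv1 miR-22 sits at 0.17 and 1.49, above the line, and in PC-3 at 0.12 and 0.16, near it.

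The miRNAs that followed each arm most closely across the libraries of a line differed between arms and lines; all of these correlations share libraries and scaling. In 22Rv1 the levels of miR-22-5p ran most closely with miR-21-3p (Pearson r = 0.76, Spearman rho = 0.32), miR-320b (0.72, 0.42), miR-152-5p (0.71, 0.64), miR-141-5p (0.69, 0.25) and miR-132-5p (0.68, 0.51), over 23 libraries and 322 candidates. Without the 4 libraries of the 0% level the r values were 0.43, 0.49, 0.41, 0.13 and 0.38. Apart from miR-320b, each of these 5 is the less abundant arm of its hairpin. The share of such arms among the 322 candidates was not counted, so this is no trait of the group.

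These miRNAs were picked by a correlation that the 0% libraries carry, so their higher hypoxia levels at 0% O2 in 22Rv1 were largely fixed by that choice and are given as a description. miR-152-5p was at 51.7 and 47.7 CPM in hypoxia, against 19.9 and 17.04 CPM in normoxia (log2 fold change 1.43, against 0.66 for miR-152-3p). miR-21-3p was at 1339 and 1323 CPM in hypoxia, against 671 and 722 CPM in normoxia (0.93, against 0.31 for miR-21-5p). For miR-132-5p and miR-141-5p the log2 fold changes were 0.73 and 0.66, against 0.32 and 0.43 for their more abundant arms, and for miR-320b 0.61. In PC-3 miR-152-5p and miR-132-5p averaged only 7.06 and 6.65 CPM, near the 5 CPM filter. The same contrast there gave 0.07 for miR-152-5p, -0.19 for miR-21-3p and -0.05 for miR-132-5p, with miR-141-5p and miR-320b not given. Of these arms, the RefSeq table held miR-152-5p and miR-132-5p, shown here because their seeds (capitals) differ from that of miR-22-5p; they lie at chr17:48037210-48037232 and chr17:2049965-2049986 of GRCh38.p14, minus strand.
hsa-miR-152-5p: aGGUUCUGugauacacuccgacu
hsa-miR-132-5p: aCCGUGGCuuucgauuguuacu

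The arms of miR-22 were set against each other in the same way. Their r was 0.48 in 22Rv1 (rho = 0.49, and r = 0.53 without the 0% level), and -0.01 in PC-3 (rho = -0.02) over 24 libraries. Seen from miR-22-3p, its 5p partner was the 10th closest of 322 miRNAs in 22Rv1 and number 163 of 291 in PC-3. The closest to miR-22-3p were miR-574-3p (r = 0.72), miR-27b-3p (0.72), miR-181c-5p (0.68), miR-320a (0.66) and miR-26b-3p (0.65) in PC-3, and miR-378c (0.68), miR-32-5p (0.64), miR-33b-5p (0.55), miR-29a-3p (0.55) and miR-2355-5p (0.54) in 22Rv1. For miR-22-5p in PC-3 they were miR-374a-5p (0.55), miR-215-5p (0.51), miR-31-3p (0.48), miR-873-3p (0.43) and miR-16-2-3p (0.42).

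In normoxia, PC-3 and 22Rv1 were compared over the controls of the 5 levels after scaling all libraries together. On that joint scale miR-22-3p averaged 43039 ± 1870 CPM in PC-3 (SD, n = 10) and 35440 ± 3222 CPM in 22Rv1 (n = 9), a log2 difference of 0.26 ± 0.07 (SE; edgeR adjusted p = 0.0013). miR-22-5p averaged 32.6 ± 4.16 CPM in PC-3 and 25.4 ± 3.88 CPM in 22Rv1, a difference of 0.34 ± 0.11 (adjusted p = 0.00349). Both passed, as did 84.2% of the 613 miRNAs, and the median miRNA was at -0.15. With a filter at 20 CPM neither passed (0.10, adjusted p = 0.172, for miR-22-3p and 0.19, adjusted p = 0.0928, for miR-22-5p), and without the PC-3 control replicate 1 of the 2% level miR-22-5p did not (0.22, adjusted p = 0.0797). The direction turned with the scaling: by library size alone the differences were -0.17 for miR-22-3p (adjusted p = 0.0473) and -0.10 for miR-22-5p (0.425), with the median miRNA at -0.59. As shares of all counts, miR-22-3p took 3.76 ± 0.124% in PC-3 and 4.17 ± 0.642% in 22Rv1. The ratio of the arms, free of that scaling, differed by 0.07 ± 0.11 (limma adjusted p = 0.562; exact two-sided permutation p = 0.323), with 56.5% of 170 hairpins called.

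miR-22 belongs to a wider group of hairpins that MYC is known to repress. Among 27 of them, 51 mature miRNAs were tested per line over the 5 levels. In PC-3, 6 rose, 1 fell and 44 did not pass (4.32% of all miRNAs rose and 3.67% fell), with a median log2 change of 0.03 against 0.002 over all miRNAs tested. In 22Rv1, 4 rose, 4 fell and 43 did not pass (4.89% and 4.53% of all), with a median of -0.004 against 0.001. The members with the smallest p were mostly from the miR-30 family. miR-30d-5p averaged 25355 CPM in hypoxia and 19336 CPM in normoxia in PC-3 (log2 0.39, edgeR adjusted p = 0.000281), and 35264 against 22825 CPM in 22Rv1 (0.60, adjusted p = 3.39e-05). miR-30b-3p rose by 0.52 in PC-3 and 0.60 in 22Rv1, and miR-30d-3p by 0.41 and 0.52, while miR-195-3p fell by 0.42 in 22Rv1. The arms of miR-22, which are in this list, passed in neither line.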

How the data were processed

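The authors deposited raw read counts, whole numbers for each mature miRNA; total RNA came from the miRNeasy kit and libraries from TruSeq Small RNA, per the labels' protocols. FastQC and hg19 are named in the submitters' processing notes; no aligner or counter is named (not given in the sources used here). A second table that the authors deposited holds CPM, each column being the counts times 1 constant (relative difference at most 2.55e-09); its factors, 1.01 to 1.95, served as an alternative.

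Per line, miRNAs reaching 5 CPM in 2 or more libraries were fitted with edgeR 4.0.16 (TMM, robust quasi-likelihood, 1 mean per group, no block) in R 4.3.3; the threshold was an adjusted p of 0.05. Line differences used 1 fit of all 47 libraries. Arm ratios, log2 with a pseudocount of 0.5, used limma 3.58.1 (robust, trend). DESeq2 1.42.0 was an alternative. Scripts were tested on simulated data. Identical counts in every library occurred for 24 entries, neither of the miR-22 arms among them. By name, 868 of 1006 entries matched RefSeq.

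Other miRNAs were named by rule: miR-210, the 5 best correlated per arm and line with at least 20 CPM, and up to 4 list members per line by smallest p. A second list of miRNAs is not reported here. Members, lists and rules were chosen with earlier results of these data known. Replicate numbers, from the sample titles, pair hypoxia with control: deviations correlated at 0.301 to 0.665 over 6 levels in PC-3 and 0.113 to 0.397 over 5 levels in 22Rv1.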

Additional observations from a re-analysis of the deposited data

Results flagged for a closer look

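In 22Rv1 the estimated hypoxia effect on miR-22-5p had opposite signs at different O2 levels. Every hypoxia library lay above its controls at 1 level and below them at another. The differences in log2 effect were 0.4479 between 0.2 and 2% O2, 0.7238 between 1 and 2%, 0.6444 between 5 and 2%, and 1.696 between 0 and 2%. Against 0.5% O2 they were 0.4934 at 0.2%, 0.7693 at 1%, 0.6899 at 5% and 1.742 at 0%. The ratio of miR-22-5p to miR-22-3p differed likewise from its 2% effect, by 0.7535 at 1%, 0.6224 at 5% and 1.581 at 0% O2. These differences were picked by that rule and were not tested. Groups of 2 libraries, or 2 against 1, often lie apart with no effect. The share of all miRNAs whose groups did not overlap was not counted. The 0.2% level rests on 1 control library, and the 5% and 0.5% levels include libraries that stood apart in 22Rv1.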

How the results depend on the processing

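The log2 fold change of miR-22-5p at 0% O2 in 22Rv1 ran from 1.35 to 1.49 over 8 alternatives and from 1.31 to 1.69 without each library of that level, and that of the arm ratio from 1.27 to 1.32 and from 1.15 to 1.496. At the 5 levels tested, no hypoxia effect of either arm crossed the threshold under any alternative run; the 0% level was not tested. Estimates near 0 changed sign or size, and the cause was not tested. By library size alone, miR-22-5p in PC-3 was at -0.0489 at 5% and -0.0146 at 0.5% O2. Under the same scaling miR-22-3p was at 0.0276 at 0% O2 in PC-3, and at -0.0704 at 1%, 0.0274 at 0.2% and 0.0149 at 0% in 22Rv1. With the authors' factors miR-22-3p was at 0.0268 at 5% and -0.00814 at 0% in PC-3, and at -0.0284 at 1% in 22Rv1. These scalings moved the median of all miRNAs to -0.131 at 0.2% and -0.115 at 0% (authors' factors, PC-3), and to 0.108 at 0.2%, -0.385 at 0.5%, 0.125 at 2% and -0.142 at 0% (library size, 22Rv1). With a filter at 20 CPM miR-22-5p was at -0.000143 at 5% O2 in PC-3. With both lines in 1 fit, miR-22-3p in 22Rv1 was at 0.0115 over 5 levels and -0.0168 at 1%, and without the 0% libraries at 0.00271 over 5 levels. The difference between lines was -0.0118 for miR-22-3p with no filter and 0.0086 for miR-22-5p without the 3 libraries apart, an alternative chosen after seeing the data.

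The replicate block changed no call of either arm; the 22Rv1 slope of miR-22-5p was 0.00207 under it. It raised the miRNAs called from 37 to 78 in PC-3, from 52 to 112 in 22Rv1 and from 9 to 51 for the line difference. Called miRNAs were 24 in PC-3 with both lines in 1 fit, 30 in 22Rv1 by library size, and for the line difference 4 by library size and 17 with DESeq2. In normoxia, PC-3 against 22Rv1 was at -0.167 for miR-22-3p and -0.1002 for miR-22-5p by library size, and at 0.104 (adjusted p = 0.172) and 0.188 (adjusted p = 0.0928) with the filter at 20 CPM, no longer past the threshold.

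Leaving out each library in turn, miR-22-5p ran from -0.0519 to 0.0949 over 5 levels in PC-3; it was below 0 without the 2% replicate 2 of hypoxia or of normoxia or the 5% hypoxia replicate 2. At single levels in PC-3 it ran from -0.392 to 0.316 at 5%, -0.51 to 0.11 at 2%, -0.0732 to 0.211 at 1% and -0.102 to 0.112 at 0.5%, and miR-22-3p from -0.0262 to 0.189 at 0.5%. In 22Rv1 miR-22-3p ran from -0.0428 to 0.0275 over 5 levels, -0.0276 to 0.178 at 2%, -0.0672 to 0.134 at 1% and -0.225 to 0.0962 at 0.2%, and the slope of miR-22-5p from -0.105 to 0.0189. The PC-3 arm ratio over 5 levels ran from -0.116 to 0.0224, and the line difference of miR-22-3p from -0.0271 to 0.135. miRNAs called for the line difference ran from 4, without the 22Rv1 control of 0.2%, to 26, without the 22Rv1 hypoxia replicate 2 of 5% or of 0.2%. In normoxia miR-22-5p ran from 0.219 to 0.356 and lost its call (adjusted p = 0.0797) without the PC-3 2% control replicate 1. Without its single control, the 22Rv1 0.2% level and the slope gave no value. With 17 to 166 reads of miR-22-5p per 22Rv1 library, depth limits what smaller differences could be seen.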
